A study of Mus musculus with 4 samples.

Results

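The E2F transcription factors and their DP dimerisation partners were examined in neurospheres, the floating aggregates that neural stem and progenitor cells form in culture. The 10 genes were E2f1 to E2f8, Tfdp1 and Tfdp2, of 18193 genes that the array annotation names from a probe set of their own. They were chosen as a gene family, by taking the probe sets whose annotation gives a single symbol equal to that of a family member. These were 21 probe sets, 9 on the MOE430A array and 12 on the MOE430B array. No probe set was annotated to a member together with another gene.

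The wild-type group and the E2f4 knockout group each consisted of 1 RNA sample, from neurospheres of the ventral telencephalon of E12.5 mouse embryos. Each RNA was hybridised to 1 MOE430A and 1 MOE430B array, Affymetrix designs that share 100 probe sets and otherwise differ, which gives 4 arrays. How the E2f4 allele was made, the mouse strain, whether embryos were pooled and how long the cultures had grown are unstated in the sources used here. With 1 sample per genotype there was no replicate check and no test across samples, so all values below describe these 2 samples. The samples also differed in a gene outside the family, Xist, the RNA that silences an X chromosome in female cells. It had a signal of 8980 in wild type and 1178 in knockout. With 1 sample per genotype, any difference in sex make-up cannot be told apart from genotype, and its part in the ratios was not tested.

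E2F proteins bind the promoters of genes for DNA replication and cell division. E2F1, E2F2 and E2F3 are regarded as activators. E2F4 and E2F5 act mainly as repressors in quiescent and early G1 cells, where they recruit the pocket proteins p107 and p130, and E2F4 is the E2F of the DREAM repressor complex. E2F6 represses through polycomb complexes without pocket proteins. E2F7 and E2F8 are atypical repressors that bind DNA without a DP partner, whereas the other E2Fs bind as dimers with DP1 or DP2, the products of Tfdp1 and Tfdp2. Several E2F genes are themselves E2F targets. The labels give the purpose of the arrays as finding signalling pathways that depend on E2f4 in neural stem cells.

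Sequences that match the E2F consensus were found at the starts of 4 of the 8 members that have a promoter window in the RefSeq-derived table (assembly GRCm38.p6). A window runs from 250 bases before a gene's start to 50 bases from it onwards. The letters searched, on both strands, were TTTCCCGC, TTTCGCGC, TTTGCCGC and TTTGGCGC. The 4 members were E2f2, E2f3, E2f7 and Tfdp1. Of all 27025 genes with a window, 704 held such a match, or 2.6%, and of the 8212 measured genes with a window 402 did, or 4.9%. The stretches that hold the matches are shown because they are the letters through which E2F proteins could act on their own family. Capitals mark the match, and the strand shown is that of the gene.
E2f2 (chr4:136172294-136172323, + strand): cgaatttggcggcatatagTTTGGCGCtaa
E2f3 (chr13:29986064-29986183, - strand): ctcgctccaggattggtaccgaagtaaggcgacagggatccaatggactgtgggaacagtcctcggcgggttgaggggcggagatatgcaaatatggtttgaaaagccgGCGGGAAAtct
E2f7 (chr10:110745189-110745308, + strand): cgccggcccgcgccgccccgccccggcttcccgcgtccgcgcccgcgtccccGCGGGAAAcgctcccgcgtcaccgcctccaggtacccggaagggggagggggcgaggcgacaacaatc
Tfdp1 (chr8:13338631-13338750, + strand): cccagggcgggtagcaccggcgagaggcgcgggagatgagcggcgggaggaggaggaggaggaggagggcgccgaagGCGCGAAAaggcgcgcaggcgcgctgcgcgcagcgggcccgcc

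The E2f2 match reads TTTGGCGC on the gene's own strand and begins at base 40, counting the start used for its window as base 1. The E2f3 and E2f7 matches are TTTCCCGC on the other strand, and begin 11 and 198 bases before the start used for their windows. E2f2 and E2f3 each have a further annotated window, at another start, that held no match. The Tfdp1 match is TTTCGCGC on the other strand and lies inside both annotated windows of the gene, which overlap. It begins 43 bases before the gene start used for the first window and 96 before the one used for the other. The windows of E2f1, E2f6, E2f8 and Tfdp2 held none of these letters, which says nothing about sequence outside them.

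No member differed by 2-fold between the knockout and the wild-type sample on a measured probe set. A measured probe set is one for which both arrays read at or above the median signal of the design, 736 on MOE430A and 942 on MOE430B, and 18 of the 21 did so. These 18 represented all 10 genes. The log2 ratio, knockout against wild type, where 1 is 2-fold higher and 0 is equal, lay between -0.45 and 0.68 in the 18. It was above 0 in 4 of 8 on MOE430A and 5 of 10 on MOE430B, where 50.0% of all measured probe sets on MOE430A and 50.0% on MOE430B were above 0. By comparison, a difference of at least 2-fold was found for 0.442% of the 10399 measured probe sets of MOE430A and for 2.94% of the 9528 of MOE430B.

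Technical error was gauged from probe sets present on both designs, which measure the same RNAs again. Over 99 of these, the log2 ratios on MOE430A and MOE430B differed with an SD of 0.31, which corresponds to an SD of 0.22 for 1 ratio. Of the 18 member ratios, 11 were within 0.22 of zero, and 2 were more than 2 such SDs from it, those of an E2f6 and a Tfdp2 probe set. The median absolute log2 ratio of the members was 0.15 on MOE430A and 0.17 on MOE430B. Over all measured probe sets it was 0.17 on MOE430A and 0.27 on MOE430B, so on MOE430B most lay beyond 0.22. The repeated probe sets were brighter than the family, with median signals of 3534 and 9618 against 1652 and 3167 for the members on MOE430A and MOE430B. Among the 500 measured probe sets nearest in signal on the same design, the central 95% of ratios enclosed each of the 18 member ratios.

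**Figure D1:**
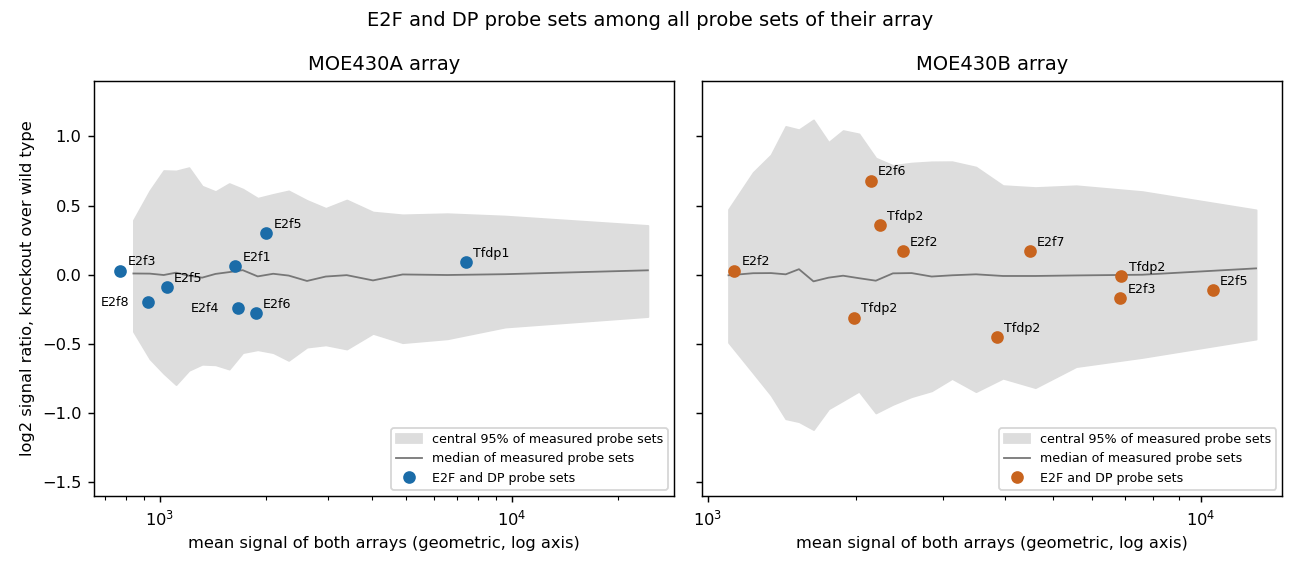
The log2 signal ratio of knockout over wild type (y) is plotted against the geometric mean signal of both arrays (x, log axis), for the 8 measured member probe sets on MOE430A and the 10 on MOE430B. The grey band holds the central 95% of all measured probe sets at each signal, and the line is their median. The points lie inside the band, which is drawn from the median signal of its dimmest bin, so that E2f3 on MOE430A stands to the left of its edge at a ratio of 0.03, and the E2f6 point on MOE430B, at 0.68, is the highest.

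E2f4, the targeted gene, was represented by 1 probe set, on MOE430A, designed from a cDNA. Its signal was 1812 in wild type against 1535 in the knockout array. The difference was a log2 ratio of -0.24, 1.18-fold lower. The central 95% of ratios among the 500 measured probe sets of nearest signal ran from -0.57 to 0.62. The sources used here do not give where this probe set lies relative to the deleted part of E2f4. Its signal is therefore no check of the genotype label.

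The activators differed little between the samples. E2f1, a strong inducer of S-phase genes, had 1 measured probe set, at 1602 in wild type and 1672 in knockout, a log2 ratio of 0.06. Its other 2 probe sets were below the floor in both samples, at 680 and 693 on MOE430A and at 475 and 540 on MOE430B. The measured probe set was slightly higher in knockout, by less than the 0.22 of a repeated probe set, and the 2 below the floor give no direction. E2f2, which shares much of its activity with E2f1, read 2339 and 2638 on the brighter MOE430B probe set, in wild type and the knockout. The other E2f2 probe set read 1120 and 1142. Their log2 ratios were 0.17 and 0.03, and E2f2 was the 1 member with several measured probe sets that all lay on the same side of zero.

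E2f3, whose locus gives a long and a short protein from alternative starts, was measured on both designs. The MOE430A probe set read 765 in wild type and 780 in knockout, just above the floor. The MOE430B probe set read 7279 and 6467. The log2 ratios were 0.03 and -0.17, on opposite sides of zero, and their mean was -0.07. Which E2f3 transcript each probe set detects was not determined.

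**Figure D2:**
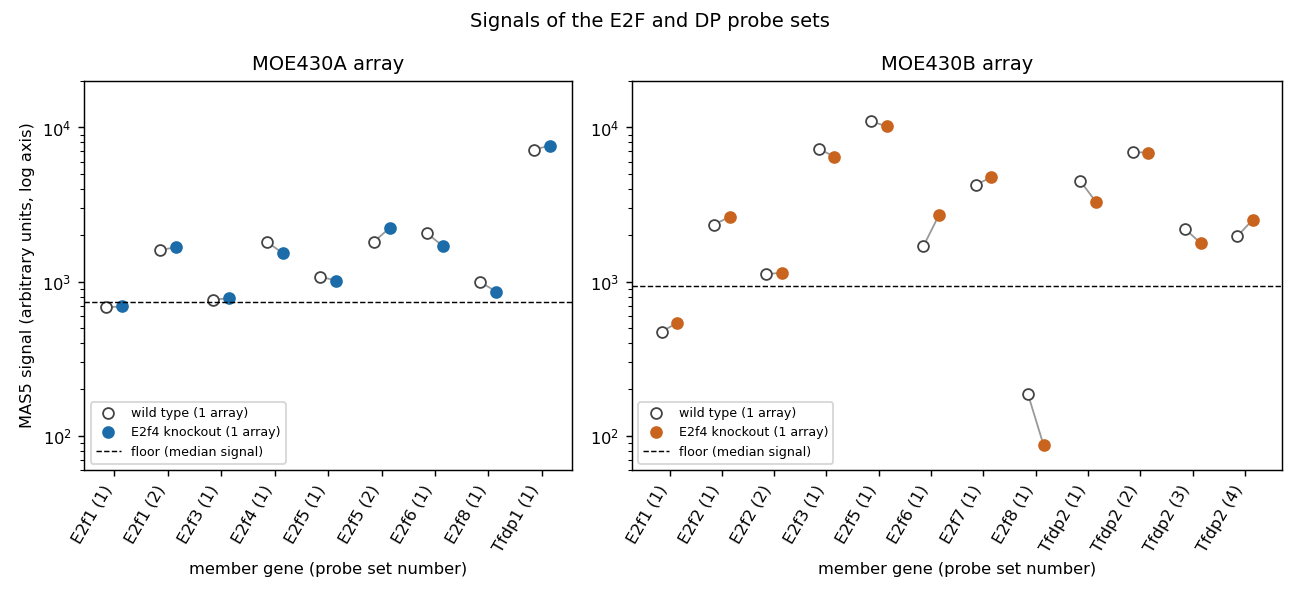
MAS5 signals (y, log axis) of the 21 member probe sets, on the MOE430A arrays in the left panel and the MOE430B arrays in the right, with the wild-type array as an open circle and the knockout array as a filled one. The dashed line is the floor, 736 and 942. The joined pairs lie close together, apart from the E2f8 probe set below the floor on MOE430B, and the clearest upward step above the floor is E2f6 on MOE430B, from 1691 to 2703.

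E2f5, the closest relative of E2f4 and the other pocket-protein repressor, had 3 measured probe sets. The 2 on MOE430A were designed from the same source record, and read 1079 and 1806 in wild type against 1015 and 2226 in the knockout. Their log2 ratios were -0.09 and 0.30. The MOE430B probe set read 10982 in wild type and 10159 in knockout, a log2 ratio of -0.11. The mean over the 3 was 0.04, with 2 of the 3 below zero. The name of the probe set at 0.30 ends in _s_at, and by that naming it can detect several transcripts.

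E2f6, the polycomb-linked repressor, held the highest ratio of the family and also 1 of the lower ones. Its MOE430B probe set, designed from an expressed sequence tag, read 1691 in wild type and 2703 in knockout, 1.6-fold higher. Its MOE430A probe set, designed from an mRNA, read 2061 and 1698, 1.21-fold lower. The log2 ratios of 0.68 and -0.28 were 0.95 apart. Over 3956 genes with more than 1 measured probe set, the pooled SD between the probe sets of a gene was 0.33. That is the SD of 1 probe set about the mean of its gene, and the SD of a difference between probe sets is larger. With 1 ratio above zero and 1 below, the mean of 0.20 describes neither probe set, and a direction for E2f6 was not established.

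The atypical repressors E2f7 and E2f8, which in many cells act together to limit E2f1, lay on opposite sides of zero. E2f7 had 1 probe set, on MOE430B, at 4239 in wild type and 4756 in knockout, a log2 ratio of 0.17. E2f8 read 993 and 861 on MOE430A, a log2 ratio of -0.20. Both ratios were smaller than 0.22. A further E2f8 probe set, on MOE430B, was far below the floor on both arrays, at 187 and 86.9, and gives no fold.

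**Figure D3:**
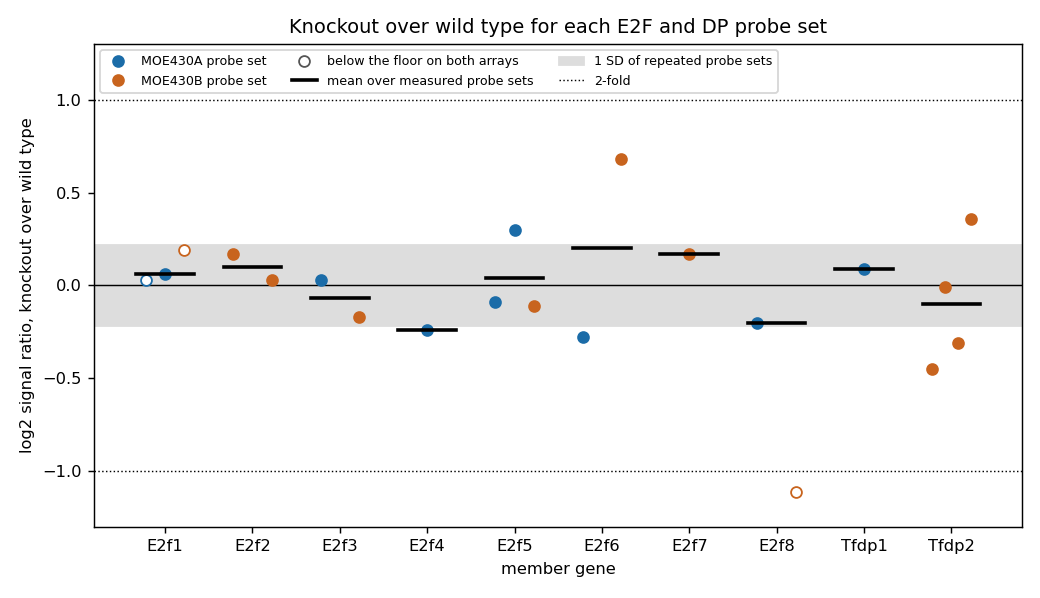
The log2 signal ratio of knockout over wild type (y) for each member probe set, grouped by gene (x) and coloured by array design. Open circles were below the floor on both arrays, black bars are means over measured probe sets, the grey band is 1 SD of a repeated probe set (0.22) and dotted lines mark 2-fold. The measured points lie between -0.45 and 0.68, and among them those of E2f6 and Tfdp2 are the most widely spread. The open E2f8 circle at -1.11 lies past the dotted line but, being below the floor, gives no fold.

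Of the DP partners, Tfdp1, which encodes DP1, read 7176 in wild type and 7625 in knockout on its 1 probe set. Its log2 ratio was 0.09. Tfdp2, which encodes DP2, had 4 measured probe sets, all on MOE430B. They read 4497, 6915, 2203 and 1971 in wild type and 3295, 6871, 1779 and 2521 in the knockout. The log2 ratios were -0.45, -0.01, -0.31 and 0.36, with a mean of -0.10. The knockout was lower on 3 of the 4 Tfdp2 probe sets, 1 of them by only 0.01, and the probe set at -0.45 was farther below zero than any other measured member probe set.

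Probe sets of the same member therefore often disagreed in sign. Of 5 members with more than 1 measured probe set, 4 had ratios on both sides of zero, namely E2f3, E2f5, E2f6 and Tfdp2. Among all 3956 such genes this was so for 57.9%. The pooled SD between probe sets was 0.35 in the 5 members, close to the 0.33 over all such genes.

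At the level of genes, with each gene taken as the mean of its measured probe sets, 6 of the 10 members were above zero, against 49.8% of 10171 measured genes. The median was 0.05 over the members and -0.001 over all measured genes. The gene means ran from -0.24 for E2f4 to 0.20 for E2f6, so none of the 10 reached 2-fold, where 1.01% of all measured genes did. The activators averaged 0.03, the pocket-protein repressors -0.10, the atypical repressors -0.02 and the DP partners -0.01, and each of these groups had members on both sides of zero. The members with an E2F match in at least 1 window, E2f2, E2f3, E2f7 and Tfdp1, had a median of 0.10, with 3 of 4 above zero. Those with a window but no match had a median of -0.02, with 2 of 4 above zero. Over all measured genes the medians were -0.002 with a match and -0.003 without, over 402 and 7810 genes.

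The pocket proteins bind E2Fs and turn them into repressors. Rb1, the retinoblastoma gene, read 1145 in wild type and 1038 in knockout, a log2 ratio of -0.14. Rbl1, which encodes p107, read 1927 and 2161, a ratio of 0.17. Rbl2, which encodes p130, read 714 and 750 on its brighter probe set and was not measured. Over the 12 pocket proteins, DREAM subunits and associated factors, 10 were measured, 5 higher and 5 lower, with a median of -0.01. At the lower end of this list were Lin54, the DNA-binding subunit of DREAM, at -0.69, and Lin52, another subunit, at -0.35. On the higher side were Mybl2, the B-Myb factor that replaces E2F4 on the shared core, at 0.50, and Foxm1, a mitotic activator, at 0.19. Lin54, Lin52 and Mybl2 each rested on 1 measured probe set. That of Lin54 read 1641 in wild type and 1020 in knockout, the latter near the MOE430B floor of 942. The 2 measured Foxm1 probe sets disagreed, at -0.14 and 0.51, and the brighter one was the lower in knockout, at 4849 in wild type and 4385 in knockout.

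No measured gene on the 2 lists of genes bound by E2F and DREAM reached 2-fold, where 1.01% of all measured genes did. At that share, lists of this length would hold few or no such genes. Of all measured genes, 49.8% were higher in knockout, the share to set beside the counts of these and the other lists. Of 26 measured S-phase targets, 17 were higher and 9 lower, with a median of 0.05, which was -0.023 with only the brightest probe set of each gene. Mcm10, a replication initiation factor, stood at -0.60 and Tk1, thymidine kinase, at -0.37. Tyms, thymidylate synthase, stood at 0.31 and Ung, a uracil glycosylase, at 0.27. Of 25 measured genes of G2 and mitosis, 21 were higher and 4 lower, with a median of 0.14. Ccnb2, a mitotic cyclin, stood at 0.44 and Mki67, the proliferation antigen Ki-67, at 0.31, while Bub1, a checkpoint kinase, stood at -0.35 and Melk, a mitotic kinase, at -0.32.

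**Figure D4:**
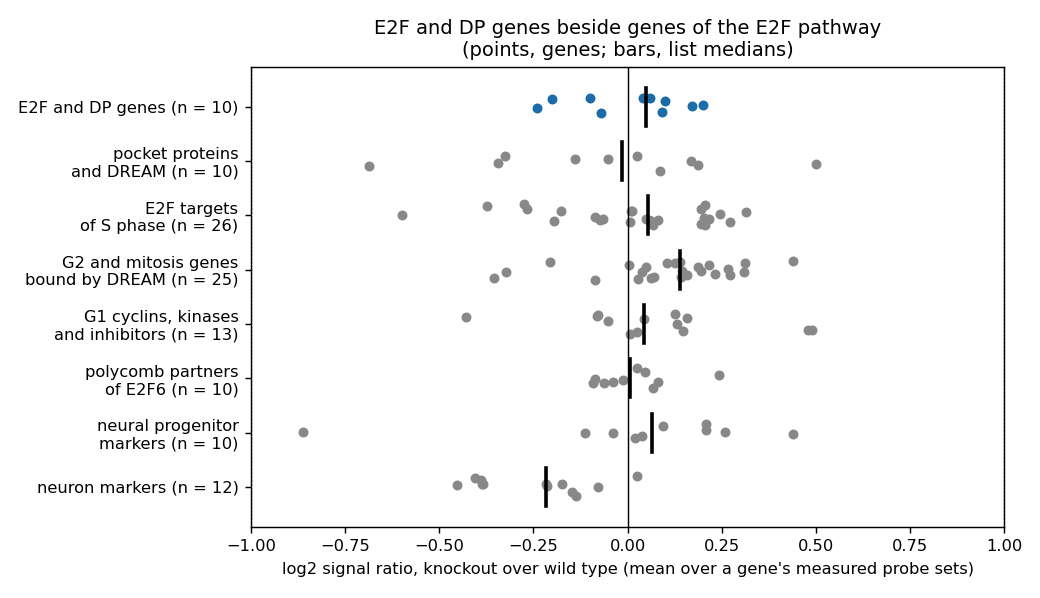
Log2 signal ratios of knockout over wild type (x) for single genes (points) of the E2F and DP family and of lists of the E2F pathway and cell types (y), with list medians as bars. The family lies between -0.24 and 0.20 around a median of 0.05, the G2 and mitosis list has a median of 0.14 and the neuron list one of -0.22.

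Upstream of the E2Fs, G1 cyclins, their kinases and the inhibitors of these had 13 measured genes, 9 higher and 4 lower, with a median of 0.04. Ccnd2, a D-type cyclin, read 30467 and 43125 on its brightest probe set, and its 6 measured probe sets lay between 0.30 and 0.72, with a mean of 0.49. All 6 were thus on the same side, unlike the probe sets of Ccnd3, at -0.10 and 1.06. Cdkn1a, which encodes the inhibitor p21, stood at -0.43 and Cdkn2c, which encodes p18, at -0.08. Partners of E2F6 in polycomb complexes had 10 measured genes, 5 on each side, with a median of 0.01. Ezh2, the polycomb methyltransferase, stood at 0.24 and Suz12 at 0.08, from probe sets between -0.61 and 0.80. Mga and L3mbtl2, which share a complex with E2F6, both stood at -0.09, the 3 probe sets of Mga between -0.29 and 0.09.

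Both samples expressed progenitor genes, with 10 of 10 neural progenitor markers above the floor in each, a median ratio of 0.07 and 7 of 10 higher in the knockout. The ratio farthest from zero among them was nevertheless a lower one, that of Hes5, a Notch target, at -0.86 (named after its value was seen). All 12 neuron markers were measured, 11 of them lower in knockout, with a median of -0.22 and a summed signal of 240357 in wild type and 205217 in the knockout. In bulk RNA, fewer cells of a type and less RNA per cell cannot be told apart. Markers of other cells were fewer above the floor: 3 of 5 represented erythroid markers in both samples, with globins among them, and 3 of 6 endothelial and 2 of 6 microglial markers in both. Each sample had 4 of 6 oligodendrocyte lineage markers above the floor, of which 3 were on a probe set above it in both. Mesenchymal markers were above it for 4 of 7 in wild type and 3 of 7 in knockout, and astrocyte markers for 1 of 5 and 3 of 5. The 3 measured erythroid markers were all lower in knockout, with a median of -0.51 and a summed signal of 278732 in wild type and 214562 in knockout. Of the oligodendrocyte lineage markers, Olig1, Olig2 and Pdgfra were not measured. The 3 measured, Sox10, Cnp and Mbp, at a median of -0.43, and the 2 microglial ones, Csf1r and Laptm5, at -0.44, were lower too. So were 2 of 3 endothelial markers, with a median of -0.39, and the 1 measured astrocyte marker, at -0.30. Of the mesenchymal markers, Col1a1, Col3a1, Dcn and Lum were not measured. The 3 measured, Col1a2, Acta2 and Rgs5, were higher in knockout, with a median of 0.29. The part of these differences in the ratios of the E2F genes was not tested.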

How the data were processed

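Total RNA was prepared on RNeasy columns and labelled as biotinylated cRNA with no amplification step, per the labels' protocols. The deposited values are linear signal intensities. The submitters' processing notes name MAS5, with no version. The values show that the authors scaled each array to a trimmed mean of 1500. No detection calls were used. Per the file headers, the 2 genotypes shared a hybridisation day within each design, and the designs had different days.

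Ratios were taken as log2 of knockout over wild type within a design and centred on the median of measured probe sets (shifts of -0.0033 and -0.0014). Control probe sets, 64 per design, were left out. Symbols are those of the platform annotation, replaced by the symbol of a RefSeq table (GRCm38.p6) where that holds the gene ID. This changed no member symbol. No scale is shared between probe sets, so signals of different probe sets were not compared as levels of RNA. The number of arrays limits the precision.

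All members were named, with Rb1, Rbl1, Rbl2 and, for each further pathway list, the 2 genes farthest from zero in each direction. For the pocket protein list these were added to the 3. The members and lists were chosen with earlier results of these data known. The procedure was tested on simulated data with planted changes of 2-fold or more, alike in all probe sets of a gene. Its recovery of differences as small as those of the member genes was not tested. The alternatives were lower, higher and no floors, a pseudocount, no centring, quantile normalization, lowess (span 0.3), only the brightest probe set of a gene, no probe sets with an _a_at, _s_at or _x_at ending, and a single design. The work was done in Python 3.11.15 with pandas 2.3.3 and numpy 2.4.6; lowess came from statsmodels 0.14.6 and figures from matplotlib 3.10.9.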

Additional observations from a re-analysis of the deposited data

How the results depend on the processing

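Under the 11 alternatives, the E2f4 log2 ratio stayed below zero in the 10 that measure it, from -0.25 to -0.17. E2f4 has 1 probe set, so these alternatives reuse the same pair of signals, and its steady sign adds no support. The member median ran from -0.065 to 0.067 and was below zero in 1 alternative, the one without probe sets ending in _x_at, _s_at or _a_at. The count of members higher in the knockout was 3 on MOE430B alone, of 6 genes measured there, against 6 of 10. It was 4 of 9 without probe sets of those endings and 5 of 10 with the brightest probe set. The count of member probe sets at 2-fold was 1 with no floor, against 0 with it; this was the dim E2f8 probe set, and the E2f8 mean was then -0.66. E2f6 changed sign, at -0.27 under the higher floor, the 70th percentile, and -0.28 on MOE430A alone, and stood at 0.68 with the brightest probe set or on MOE430B alone, since each of these uses a single probe set. E2f5 fell below zero in 3 alternatives, to -0.11 at the lowest, and E2f3 rose above it in 1, to 0.03. The other members kept their sign in all alternatives that measure them. Of these, E2f1, E2f7, E2f8 and Tfdp1 also had 1 measured probe set each, which most alternatives reuse. The G2 and mitosis median stayed above zero in all 11, from 0.049 to 0.14. All 11 reprocess the same 2 RNA samples, so this steady sign adds no support either. The medians of the other pathway lists ran more widely, those of S-phase targets from -0.023 with the brightest probe set to 0.15, pocket proteins and DREAM from -0.35 on MOE430B alone to 0.026, E2F6 partners from -0.028 to 0.086, and G1 genes from 0.015 to 0.49 on MOE430B alone. No paired analysis was possible because each genotype has 1 sample. Signals near the floor, and 1 array per sample and design, limit how small a difference can be seen.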
